A study of Mus musculus with 167 samples.

Results

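LOX is one of the inbred Collaborative Cross strains used in this series, and the tumours described here come from 7 LOX x MexTAg mice, compared with tumours of 68 mice from 16 other crosses out of 119 mice in the series. Males of each Collaborative Cross strain had been mated with MexTAg females, so every mouse in both groups carried a MexTAg genome from its mother and differed by its father's strain. In MexTAg mice the promoter of the mesothelin gene drives SV40 large T antigen in mesothelial cells. All mice received crocidolite asbestos (3 mg per injection) into the peritoneum with no other treatment. The LOX libraries were taken by their strain label. Of 9 LOX libraries, 7 were used, 1 from each mouse, because tumour 3 of LOX-B4 held seminal vesicle RNA and tumour 2 of LOX-D1 lacked the LOX strain marks. The comparison mice came from Boon, CC035, CC040, CC044, CC046, CC053, CC059, CC060, CIS, KAV, LAT, MEE, Rogan, TAS, VUX and YID, with 97 libraries summed per mouse. All 7 LOX mice were labelled above median survival, against 45 of the 68 other mice, so strain and survival class cannot be told apart within LOX. The labels used here state neither the age nor the sex of the animals.

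Mesothelioma arises from the flat cells that line the body cavities, and asbestos fibres that stay in these linings keep up inflammation around them. Mesothelin, uroplakins and keratins mark the epithelioid form of this tumour, while the transcription factor Zeb1 and collagen genes mark mesenchymal, sarcomatoid cells. Whole tumours were sequenced, so RNA of stroma, blood cells and neighbouring organs is part of each library. Fewer cells of a type and less RNA per cell cannot be told apart in such samples. Because the founders of the Collaborative Cross include wild-derived mice, some genes are present in extra copies or in differing sequence in only part of the strains.

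2 pairs of sequences show why 2 of the genes that mark LOX must be read with care, since each has a near-identical relative in the reference genome. The stretches below are 60 bases long, run 5′ to 3′, come from GENCODE M21 transcripts of the GRCm38 build, and were chosen as the windows with the most differing bases. Capitals mark the bases at which the members of a pair differ. The first pair is the processed pseudogene Rps2-ps13 (chrX:52898588-52899469) and the coding sequence of Rps2, which encodes a protein of the small ribosomal subunit.
Rps2-ps13: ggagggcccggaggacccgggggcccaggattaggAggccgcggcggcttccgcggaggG
Rps2: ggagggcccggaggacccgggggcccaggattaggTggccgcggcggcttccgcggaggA
The second pair is the predicted coding gene Gm13691 (chr2:83990553-83993045) and Cwc22 (chr2:77881159-77946375), a splicing factor that recruits part of the exon junction complex.
Gm13691: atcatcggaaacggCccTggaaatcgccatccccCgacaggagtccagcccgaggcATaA
Cwc22: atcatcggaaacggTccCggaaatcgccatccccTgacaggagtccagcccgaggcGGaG
Over 879 aligned bases, Rps2-ps13 and the Rps2 coding sequence differed at 7 positions (99.2% identical), and Gm13691 and the Cwc22 coding sequence differed at 39 of 2471 (98.4%). Of the 31-base stretches in the Rps2-ps13 transcript, 5.52% occurred in no other gene. For Cwc22 that share was 75.1%.

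Several LOX libraries stood apart by their tissue content. LOX-F4 held lung RNA: 14 genes of alveolar cells, a list added after the data were seen, took 8.19% of its counts, with Sftpc (surfactant protein C) at 32270 CPM (counts scaled to a library total of 1000000), Sftpb at 20010 CPM and the lung regulator Nkx2-1 at 403 CPM. Among the 68 other mice this list had a median of 0.00994% and a maximum of 2.19% in CC059-E2, whose tumour 2 was the second such library. LOX-E4 was rich in leukocyte RNA, with Ptprc (CD45) at 1418 CPM and the T cell gene Cd3e at 119 CPM, against medians of 96.2 and 3.27 CPM in the other mice. Of the B cell genes given here Cd79a was at 344 CPM there, but Ms4a1 (CD20) at 6.08 CPM and Jchain at 3.14 CPM. Mesothelial genes took 0.00858% of LOX-E4 counts, below the lowest of the other mice (0.0132%), and 0.900% of LOX-B4 tumour 1, above the highest (0.734%). Skeletal muscle genes took 0.998% of LOX-F2 and 0.401% of LOX-A3, with 3 and 5 of the 68 other mice above them. Seminal vesicle genes were at trace level in LOX-B4 tumour 1 (0.0658%) and LOX-F4 (0.0537%), the 2 libraries numbered just before and after LOX-B4 tumour 3, in which they reached 50.1%. Such traces were not particular to these 2 libraries, since 5 of the 68 other mice had a higher share than either. Calls are therefore also given without the 2 lung libraries, and for many genes without LOX-E4 as well.

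**Figure D1:**
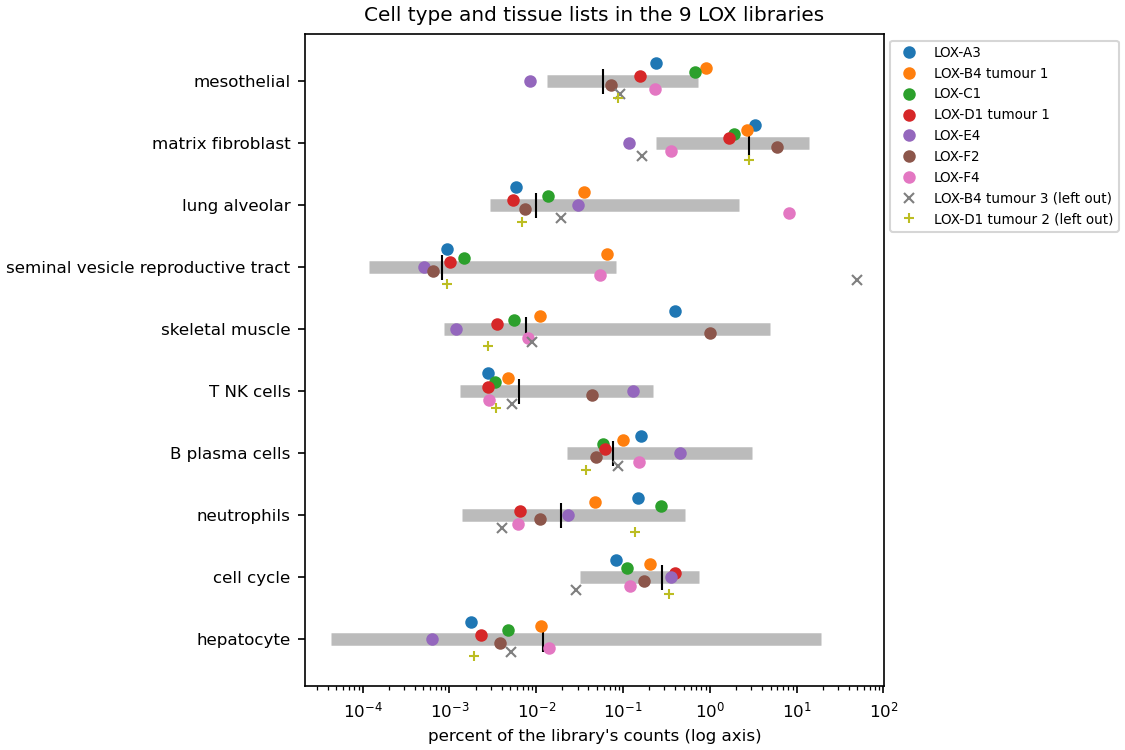
Percent of each LOX library's counts taken by marker lists (horizontal log axis), with 1 symbol per library, grey bars for the range and black ticks for the median of the 68 other mice. LOX-F4 lies beyond the grey bar for lung genes at 8.19%, LOX-B4 tumour 3 for seminal vesicle genes at 50.1%, and for mesothelial genes LOX-E4 lies below it and LOX-B4 tumour 1 above it.

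Cwc22 separated LOX from all but 1 of the 16 strains. Cwc22 stood at 319 CPM in LOX-A3, 229 in LOX-B4, 504 in LOX-C1, 363 in LOX-D1, 407 in LOX-E4, 207 in LOX-F2 and 171 in LOX-F4. The median of the other mice was 35.6 CPM, and the mice that overlapped LOX were all from TAS, where Cwc22 had a median of 438.7 and a maximum of 829 CPM. In the comparison with all 68 mice Cwc22 was higher in LOX by 2.04 ± 0.47 (SE) on the log2 scale (adjusted p = 0.00250, edgeR quasi-likelihood test), and by 2.12 without the lung libraries. Between LOX and TAS the mean log2 CPM differed by -0.47, less than the SD within either strain (0.57 in LOX and 0.91 in TAS, exact permutation test over 1716 arrangements, two-sided p = 0.277, n = 7 and 6). In the left-out tumour 2 of LOX-D1 Cwc22 was 34.9 CPM, at the level of the other strains, whereas in the left-out tumour 3 of LOX-B4 it was 141 CPM. Because its strain marks were low, tumour 2 of LOX-D1 was left out. The tests of Cwc22 and Rps2-ps13 therefore draw on values used in that choice.

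A block of Cwc22-like genes farther along chromosome 2 was high in the same mice. The 7 predicted genes Gm13691 and Gm13693 to Gm13698 (chr2:83955693-83993045) share 62.8% (Gm13691) or 62.2% (Gm13693, Gm13694, Gm13696, Gm13697 and Gm13698) of their 31-base stretches with Cwc22. In these 6 genes every stretch also occurs in another gene, so the counts of single copies cannot be told apart and only their sum is given. That sum was 72.2 CPM in LOX-A3, 63.1 in LOX-B4, 126 in LOX-C1, 112 in LOX-D1, 87.0 in LOX-E4, 58.1 in LOX-F2 and 56.95 in LOX-F4. TAS mice had 44.98 to 207 CPM and overlapped LOX. KAV (10.2 to 13.4 CPM) and Rogan (10.4 to 15.96 CPM) lay in between, with Cwc22 itself at the common level there (medians of 35.4 and 32.02 CPM). In every mouse of the other 13 strains the sum was at most 1.94 CPM.

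Rps2-ps13 gave a different strain pattern. Its level was 365 CPM in LOX-A3, 499 in LOX-B4, 682 in LOX-C1, 1105 in LOX-D1, 561 in LOX-E4, 442 in LOX-F2 and 609 in LOX-F4, against a median of 13.5 CPM in the other mice, of which 10 lay above the lowest LOX mouse. The difference of 2.26 ± 0.80 on the log2 scale did not pass the threshold (adjusted p = 0.0835, edgeR), and 22 of the other mice were above 50 CPM. It was 2.22 without the lung libraries (adjusted p = 0.178). The call changed in 5 of 38 alternatives, among them 1 coefficient per strain (4.43, adjusted p = 1.20e-20), limma-voom (4.49), only mice above median survival (2.94) and TAS left out (2.80). Set against Rps2, the pseudogene took 40.6% of the joint counts in LOX-A3, 45.98% in LOX-B4, 59.03% in LOX-C1, 49.2% in LOX-D1, 54.8% in LOX-E4, 52.9% in LOX-F2 and 47.8% in LOX-F4, a mean of 50.03% ± 6.08 (SD, n = 7). CC035, CIS, TAS and VUX had median shares of 48.7%, 47.1%, 46.4% and 44.6% and overlapped LOX. CC053 lay between 14.2% and 28.3%, and the 46 mice of the remaining 11 strains under 10%. The joint level of Rps2 and Rps2-ps13 had a median of 1085 CPM in LOX and 1076 CPM in the other mice. Whether the reads came from the copy on chromosome X or from another near-identical copy was not tested. Tumour 2 of LOX-D1 had a share of 0.139%, and tumour 1 of the same mouse 49.2%.

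**Figure D2:**
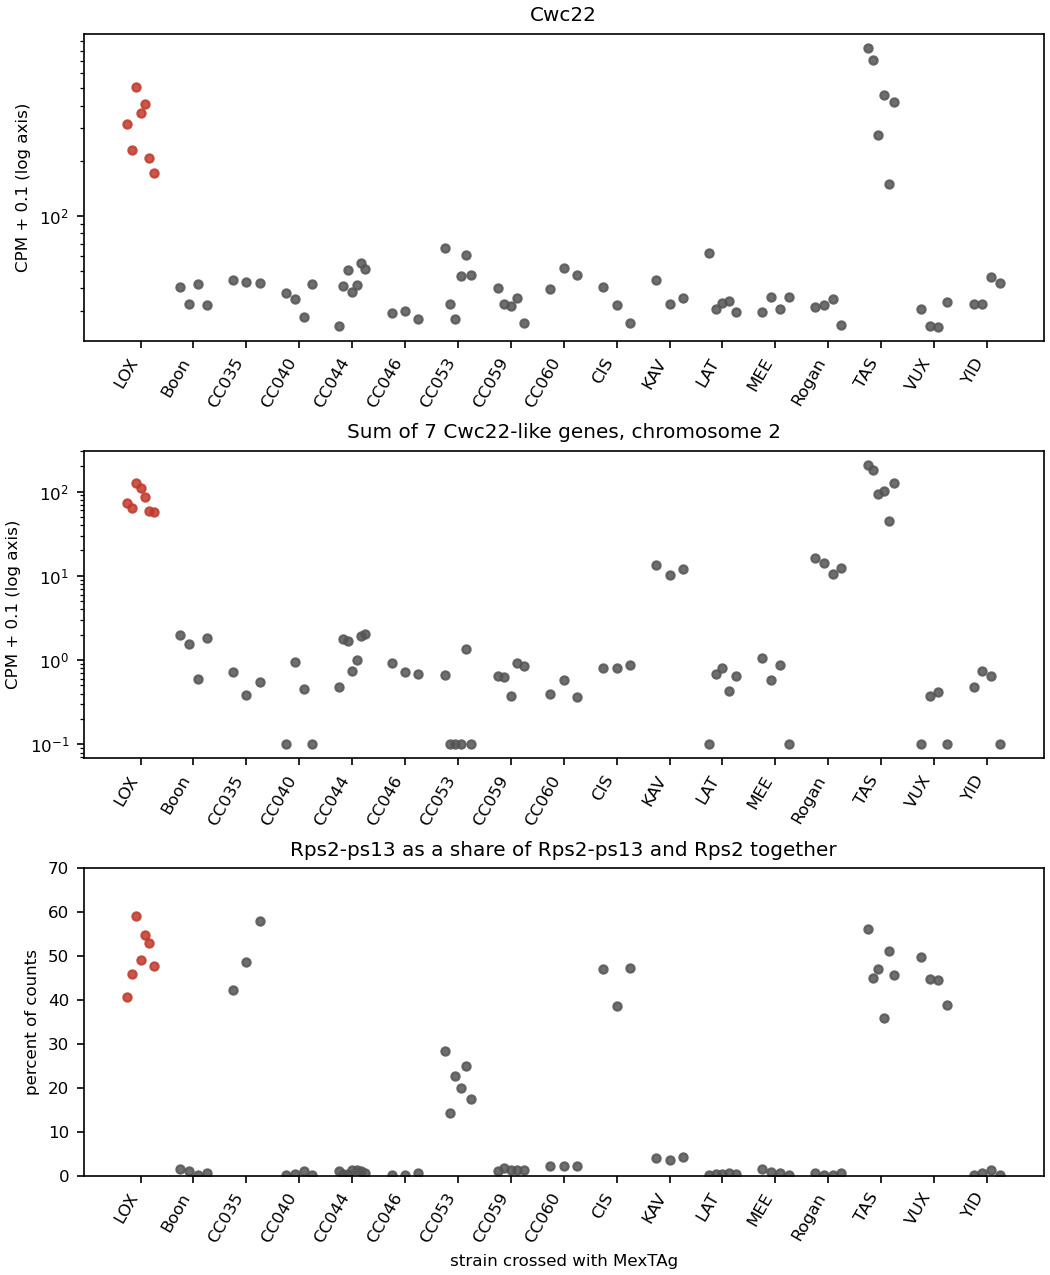
Cwc22, the sum of 7 Cwc22-like genes (both in CPM + 0.1, log axes) and the percent of joint Rps2 and Rps2-ps13 counts that fell on Rps2-ps13, with 1 point per mouse and strains on the horizontal axis (LOX in red). LOX and TAS are high in all 3 panels, KAV and Rogan in the second at 10.2 to 15.96 CPM, and CC035, CIS and VUX in the third.

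Across 18692 genes, 843 were higher in LOX (4.51% of those tested) and 117 were lower (0.626%) at an adjusted p under 0.05 in the edgeR quasi-likelihood test. Lung RNA in LOX-F4 moved with much of this: LOX-F4 was the highest LOX mouse for 44.1% of the genes called higher, and LOX-E4 for 30.5%. Without the 2 lung libraries, 389 genes were higher (2.06% of 18916) and 39 lower (0.206%), of which 374 and 33 were also called with all mice. Without LOX-E4 as well, leaving 5 LOX mice, 205 were higher (1.07% of 19171) and 16 lower (0.0835%), and 169 and 12 genes were called in all 3 fits. The number of genes for which all 7 LOX mice lay above all 68 other mice was 0 (0%), as was the number for which all lay below (0%). The genes named by the rule across all genes followed suit: 16 of 40 kept their call without the lung libraries.

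**Figure D3:**
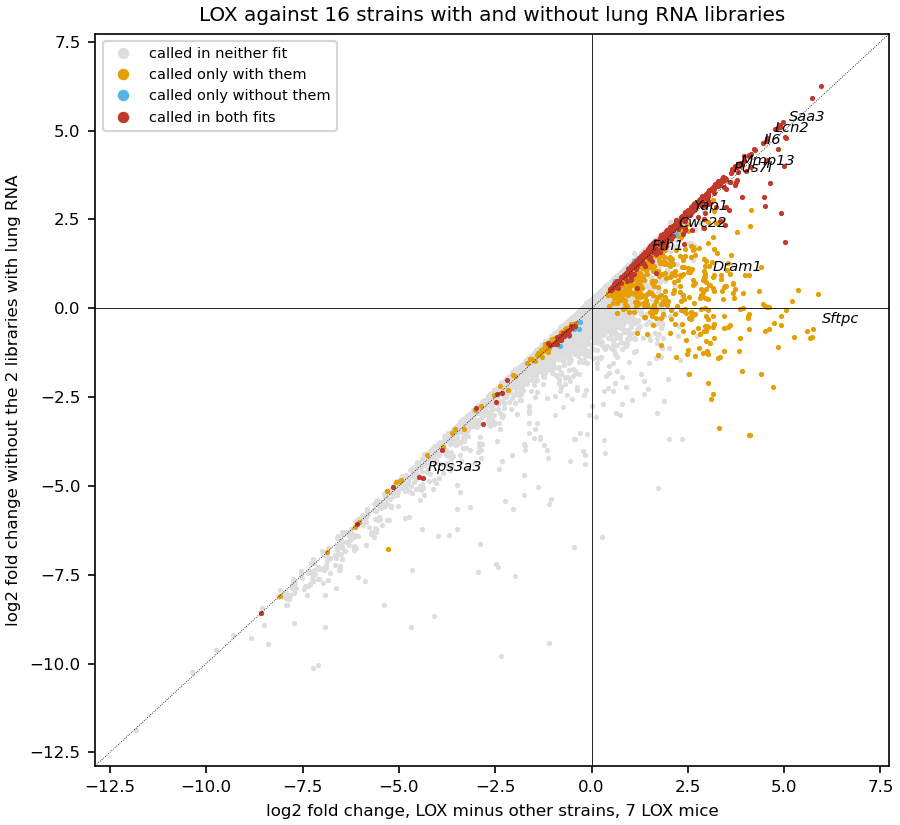
Each point is a gene, with its log2 fold change (LOX minus other) over all 7 LOX mice on the horizontal axis and without the 2 libraries with lung RNA on the vertical axis, coloured by the fit in which it was called. Sftpc and Dram1 fall from the dotted line of equality, while Saa3, Lcn2, Cwc22 and Fth1 lie near it.

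The gene with the lowest adjusted p was Pus7l (chr15:94522688-94543547), a pseudouridine synthase-like protein of the family that modifies RNA, named here after its values were seen. Pus7l stood at 335 CPM in LOX-A3, 111 in LOX-B4, 165 in LOX-C1, 114 in LOX-D1, 16.2 in LOX-E4, 37.5 in LOX-F2 and 4.51 in LOX-F4. The highest of the 68 other mice had 18.8 CPM and their median was 10.6, so 5 LOX mice lay above all of them, LOX-E4 was within their range and LOX-F4 was below their median. The log2 difference was 3.46 ± 0.21 (adjusted p = 7.73e-23, edgeR) and was 3.65 without the lung libraries. Over the 7 LOX mice the SD of log2 CPM was 2.14, so this SE does not measure the spread among them. None of the 3284 31-base stretches of Pus7l occurs in another gene. Its neighbour Irak4, a kinase of interleukin 1 and Toll-like receptor signalling that starts just beside it, had a log2 difference of 0.03 ± 0.17 (adjusted p = 0.953). The other neighbour, Adamts20, was at 0.147 to 2.44 CPM in LOX.

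Pus7l did not follow the strain marks, which were high in all 7 mice. The 3 mice with the lowest Pus7l, LOX-E4, LOX-F2 and LOX-F4, shared further features. The zinc finger gene Zfp729a was at 59.98, 65.7 and 139 CPM in them, against 1578 in LOX-A3, 1417 in LOX-B4, 1808 in LOX-C1 and 341 in LOX-D1 (other mice: median 104, maximum 2094). The Y-linked helicase gene Ddx3y was at 0.131, 0.451 and 0.833 CPM in the same 3 mice and at 79.2, 72.9, 14.4 and 12.1 CPM in LOX-A3, LOX-B4, LOX-C1 and LOX-D1. These mice were picked out by their values, so no test was made between them, and their part in the Pus7l result was not tested.

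Saa3, Lcn2 and Slc39a8 were also higher in LOX. They were picked with their values in view and not by rank. Saa3, an acute-phase apolipoprotein, stood at 2504 CPM in LOX-A3, 50.1 in LOX-B4, 5090 in LOX-C1, 11.2 in LOX-D1, 236 in LOX-E4, 16.3 in LOX-F2 and 16.5 in LOX-F4, against a median of 14.8 and a maximum of 861 CPM elsewhere. Its log2 difference was 4.90 ± 0.60 (adjusted p = 6.59e-09, edgeR) and 5.11 without the lung libraries. LOX-C1 and LOX-A3 lay above all other mice, and LOX-D1 alone lay below the median. Lcn2, lipocalin 2, which withholds iron from bacteria, reached 5320 CPM in LOX-C1, 750 in LOX-F4, 592 in LOX-A3 and 116 in LOX-D1, but was at 5.23 to 8.98 CPM in the other 3 mice, next to the median of 5.25 CPM in the other strains (log2 difference 4.54 ± 0.78, adjusted p = 2.73e-05, and 4.78 without the lung libraries). Without LOX-C1 Lcn2 did not pass (2.65, adjusted p = 0.0813). The zinc importer Slc39a8 was at 828 CPM in LOX-C1, 178.5 in LOX-F4, 150.9 in LOX-B4 and 37.3 in LOX-A3, and at 2.62 to 18.8 CPM in the rest (other mice: median 11.4). Its log2 difference was 3.44 ± 0.42 (adjusted p = 4.93e-09) and 3.40 without the lung libraries.

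The calls for 3 cytokine genes rested on LOX-A3. Il6 was at 192 CPM in LOX-A3 and at no more than 4.79 CPM in the other 6 LOX mice (other strains: median 0.780, maximum 26.6). Csf3, the granulocyte colony-stimulating factor, was at 89.9 CPM in LOX-A3, 9.18 in LOX-C1 and at most 0.558 in the rest. Cxcl1, a ligand of the neutrophil receptor Cxcr2, was at 747 CPM in LOX-A3 and 333 in LOX-C1 and between 0.262 and 7.99 CPM in the other 5, around the other strains' median of 4.88. All 3 passed the test over 7 mice (adjusted p = 2.47e-08, 8.16e-06 and 3.16e-05, edgeR), and without the lung libraries their log2 differences were 4.46, 4.66 and 3.82. These were 3 of 22 tested genes of the cytokine and chemokine list, against 4.51% of all genes, and the list's median log2 difference was 0.09. None of these 3 passed without LOX-A3, where the log2 differences were 0.31 for Il6 (adjusted p = 0.856), 1.27 for Csf3 (adjusted p = 0.465) and 2.10 for Cxcl1 (adjusted p = 0.0860), and none passed with limma-voom (adjusted p = 0.267, 0.284 and 0.473).

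Of 12 tested neutrophil genes, 6 were higher in LOX with all mice and also 6 without the lung libraries, where 4.51% and 2.06% of all genes were. The median log2 difference of the 12 was 1.90, beside -0.04 over all genes tested. The 6 were Cxcl2, Ngp, S100a8, Mmp8, S100a9 and Retnlg. The neutrophil list took 0.272% of counts in LOX-C1, 0.148% in LOX-A3, 0.0473% in LOX-B4 and 0.0231% in LOX-E4. In LOX-F2, LOX-D1 and LOX-F4 it took 0.0112%, 0.00644% and 0.00610%, below the other mice's median of 0.0191%. S100a8, a calcium-binding protein of neutrophil granules, was at 127 CPM in LOX-C1, 31.3 in LOX-A3 and 0.632 to 3.40 in the other 5 mice, and only these 2 exceeded the other strains' maximum of 29.4 CPM. Without LOX-C1 neither S100a8 (0.79, adjusted p = 0.562) nor Mmp8, a neutrophil collagenase (0.14, adjusted p = 0.956), nor the granule gene Ngp passed, and with limma-voom these 3 and Cxcl2 did not. The receptor genes Csf3r and Cxcr2, which neutrophils carry on their surface, had log2 differences of 0.43 and -0.06 (adjusted p = 0.560 and 0.969).

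Fth1, Socs3 and Il1f9 were higher in all 7 LOX mice than the other mice's median, as the naming rule required. Fth1, the ferritin heavy chain that stores iron, was at 8049 CPM in LOX-A3, 2011 in LOX-B4, 10250 in LOX-C1, 1801 in LOX-D1, 3342 in LOX-E4, 1581 in LOX-F2 and 1693 in LOX-F4, against a median of 1449 CPM. Fth1 differed by 1.36 ± 0.24 (adjusted p = 4.16e-05, edgeR) and by 1.48 without the lung libraries. Socs3, the feedback inhibitor of interleukin 6 signalling, was at 81.6 to 447 CPM in LOX against a median of 71.9 (1.49 ± 0.28, adjusted p = 0.000113, and 1.62 without the lung libraries), with LOX-C1, LOX-A3 and LOX-E4 above all other mice. Il1f9, which encodes interleukin 36 gamma, was at 2.96 to 27.2 CPM against a median of 1.10 (2.28 ± 0.40, adjusted p = 3.12e-05, and 2.40 without the lung libraries). TAS mice overlapped LOX for Il1f9, at 3.83 to 9.18 CPM with a median of 5.965, beside a LOX median of 5.02 CPM. For Fth1 and Socs3 the LOX median lay above the median of each of the 16 strains, which the rule required of Socs3 but not of Fth1.

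**Figure D4:**
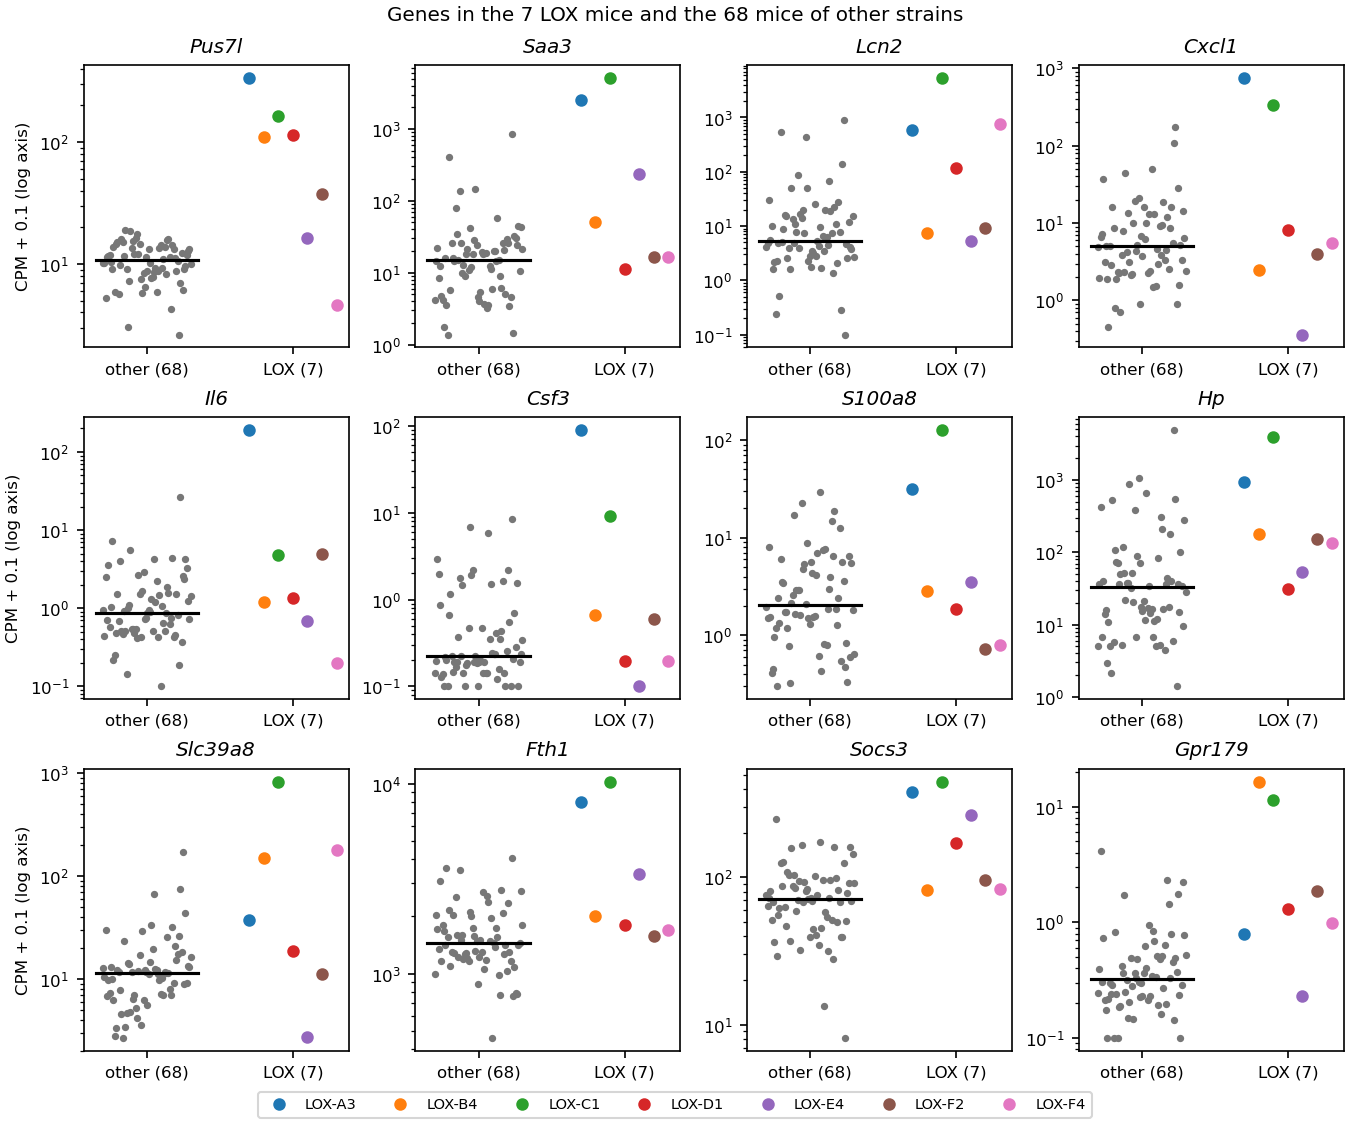
CPM + 0.1 (log axes) of 12 genes in the 68 other mice (grey, black line at the median) and in each LOX mouse (coloured). Pus7l is above all grey points in 5 LOX mice, while Saa3, Cxcl1, Csf3 and S100a8 are high mainly in LOX-A3 and LOX-C1.

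Other genes that met the naming rule and kept their call without the lung libraries were Bst1, an ectoenzyme of leukocytes and stroma, Sfn, the epithelial 14-3-3 protein sigma, Pnp2, a purine nucleoside phosphorylase, and the villin-like gene Vill. Their log2 differences over all mice were 2.92 (Bst1), 1.94 (Sfn), 1.89 (Pnp2) and 2.41 (Vill), and without the lung libraries 2.27, 1.75, 1.97 and 1.81. Bst1 was at 281 CPM in LOX-C1 and 284 in LOX-F4, but at 8.87 to 34.2 CPM in the other LOX mice. Its median in the other mice was 8.76 CPM, and 3 strains had higher medians than LOX. The call was also kept by Zdhhc3, a protein palmitoyltransferase, Aldh3b1, an aldehyde dehydrogenase, and Adssl1, of purine synthesis. Their differences without the lung libraries were 0.57, 1.54 and 1.70. Aldh3b1 and Adssl1 lost the call when LOX-E4 was left out as well (adjusted p = 0.353 and 0.412). By contrast Dram1, an autophagy gene with the lowest adjusted p under the rule (5.24e-09), was at 1570 CPM in LOX-F4 and 43.9 to 93.0 CPM in the other LOX mice, and its difference went from 2.92 to 0.88 (adjusted p = 0.0922) without the lung libraries. Tgoln1, Tnk1, Pglyrp1 and Retsat likewise lost their call, with differences of 0.42 to 0.92.

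Mesothelin rose while most other mesothelial genes did not pass. Msln was at 245 CPM in LOX-A3, 1172 in LOX-B4, 1150 in LOX-C1, 227 in LOX-D1, 1.11 in LOX-E4, 172 in LOX-F2 and 8.53 in LOX-F4, against a median of 16.6 and a maximum of 457 CPM in the other mice. Its log2 difference was 2.91 ± 0.64 (adjusted p = 0.00142, edgeR), and LOX-B4 and LOX-C1 lay above every other mouse while LOX-E4 and LOX-F4 lay under the median. With limma-voom Msln did not pass (adjusted p = 0.112). Of 18 tested mesothelial genes 2 were higher, Msln and Krt7, a simple epithelial keratin, against 4.51% of all genes, and the median log2 difference was 1.25. Without the lung libraries Msln kept its call (3.08), and Krt7, at 2.44 after 3.03, did not pass (adjusted p = 0.104). Cdh1, E-cadherin, was at 428 CPM in LOX-B4, 544 in LOX-F4 and 3.32 to 38.7 CPM in the other mice of LOX (log2 difference 3.90 ± 0.58, adjusted p = 9.77e-07), and it kept its call without the lung libraries (3.14, adjusted p = 0.000189).

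Genes lower in LOX included several of cell division. Hjurp, the chaperone that loads the centromeric histone, was at 58.4 to 117 CPM in LOX against a median of 167 CPM, with the LOX median under that of each of the 16 strains (log2 difference -1.01 ± 0.24, adjusted p = 0.00413, edgeR, and 0.0193 without the lung libraries). Without LOX-E4 as well it did not pass (adjusted p = 0.0828). The spindle gene Aspm (-1.31), the kinetochore gene Cenpf (-1.22), the cohesin protector Sgo2a (-1.16), Depdc1a (-1.23) and the chromatin ATPase Atad2 (-1.09) passed with all mice (adjusted p between 0.0154 and 0.0312), and none of them passed without the lung libraries (adjusted p between 0.0813 and 0.117). Their differences were nearly as large there, at -1.22 (Aspm), -1.15 (Cenpf), -1.12 (Sgo2a), -1.11 (Depdc1a) and -1.01 (Atad2). Of 28 tested genes on the cell cycle list 1, Cenpf, was lower, against 0.626% of all genes, and the list's median was -0.61 beside -0.04 over all genes. LOX mice differed among themselves here: Mki67, a proliferation marker, was at 660 CPM in LOX-E4, 261 in LOX-D1, 209 in LOX-B4, 161.3 in LOX-F2, 77.1 in LOX-A3, 66.9 in LOX-F4 and 31.02 in LOX-C1. Only LOX-E4 lay above the median of 286 CPM elsewhere. By the share of counts on the whole cell cycle list, LOX-D1 (0.397%) and LOX-E4 (0.356%) lay above the other mice's median of 0.2825%. The rest of LOX lay below it. The mice with the highest Saa3, LOX-C1 and LOX-A3, were among the lowest in Mki67. Other LOX mice went the other way, with Saa3 at 236 CPM in LOX-E4 and 16.5 CPM in LOX-F4. A link between the 2 genes was not tested.

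Other lower genes were Lclat1, an acyltransferase of cardiolipin, which was at 20.8 to 65.1 CPM against a median of 70.97 (-1.07 ± 0.27, adjusted p = 0.00741), and Zeb1, the mesenchymal transcription factor, at 11.3 to 111 CPM against 132 (-1.31 ± 0.37, adjusted p = 0.0176). Lclat1 kept its call without the lung libraries (adjusted p = 0.0304) but not without LOX-E4 as well (0.163). Zeb1, at -1.18, did not pass without the lung libraries (adjusted p = 0.0816). Ccdc88a, an actin-binding protein, Gfra2, a receptor for neurturin, the semaphorin Sema5a, Efcab7 and the zinc finger gene Zfp979 had differences of -1.01, -2.05, -2.54, -1.36 and -3.31. Without the lung libraries they did not pass, at differences of -0.87, -1.89, -2.44, -1.33 and -3.39.

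Some calls fell on processed pseudogenes. Rps3a3, a copy of the ribosomal protein gene Rps3a, was at 1.44 to 5.10 CPM in LOX, and 53 of the 68 other mice lay above the highest of these (median 71.6 CPM). Its log2 difference was -4.48 ± 1.03 (adjusted p = 0.00233, edgeR), and 3 strains had lower medians than LOX. Rpl21-ps15 was the reverse, at 116 CPM in LOX-A3, 105 in LOX-B4, 97.9 in LOX-C1, 201 in LOX-D1, 82.5 in LOX-E4, 105 in LOX-F2 and 310 in LOX-F4, against a median of 0.360 and a maximum of 210 CPM elsewhere. The 3 KAV mice, at 109.1 to 210 CPM, overlapped LOX, and in the other 15 strains the level was at most 3.20 CPM (log2 difference 4.56 ± 0.99, adjusted p = 0.00119). Both kept their calls without the lung libraries and without LOX-E4, but Rps3a3 did not pass with limma-voom (adjusted p = 0.354) or with the left-out LOX libraries kept, nor Rpl21-ps15 with DESeq2's Wald test (0.0574). Of the 31-base stretches of Rps3a3, 21.6% occur in no other gene and of those of Rpl21-ps15 0%, so counts of the latter rest on how reads were divided among near-identical copies. Rpl19-ps10, which was higher (3.24), kept its call without the lung libraries (2.85, adjusted p = 0.0425) but not without LOX-E4 as well (2.81, adjusted p = 0.117). Tpt1-ps3, higher (1.09), and Cbx3-ps7, lower (-5.32), did not.

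On chromosome 9 a run of neighbouring genes was very high in 2 LOX tumours. Between Pdgfd and Arhgap42 (chr9:6168584-9239101) 10 of 21 tested genes were called, all higher, with all mice and also without the lung libraries. Of all genes 4.51% and 2.06% were called higher in these fits. The stretch was found by a search for neighbouring called genes, so its count is a description only. It was the only run of at least 4 called genes with a log2 difference of 1 or more per 10 tested neighbours that also appeared without LOX-E4. The segment holds Yap1, the transcriptional coactivator held in check by the Hippo pathway, Birc2 and Birc3, inhibitors of cell death, and a cluster of matrix metalloproteinases. Yap1 stood at 9948 CPM in LOX-A3 and 3880 in LOX-F2, but at 132 in LOX-B4, 128 in LOX-C1, 118 in LOX-D1 and 123 in LOX-F4, next to the median of 137 CPM in the other mice. In LOX-E4 it was 7.65 CPM, below the lowest of the other mice (26.99 CPM). Its log2 difference was 2.42 ± 0.71 (adjusted p = 0.0273) and 2.60 without the lung libraries (adjusted p = 0.0357), and it did not pass without LOX-A3 (0.81, adjusted p = 0.639) or without LOX-F2 (2.21, adjusted p = 0.0812).

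Of 19 tested genes listed for this segment after the data were seen, 18 in LOX-A3 and 11 in LOX-F2 were at least 4-fold over the other mice's median, with median folds of 35.1 and 16.1. LOX-D1, LOX-F4, LOX-E4, LOX-B4 and LOX-C1 had 0, 1, 2, 3 and 3 such genes. Within the run the members differed. Pdgfd, a platelet-derived growth factor, was at 697 CPM in LOX-F2 and 30.2 in LOX-A3, whereas Mmp13, a collagenase, was at 3875 CPM in LOX-A3 and 22.4 in LOX-F2. Birc2 was at 2176 and 651 CPM and Arhgap42, a GTPase-activating protein, at 1898 and 1625 CPM in LOX-A3 and LOX-F2.

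Such a run was not particular to LOX. By the same count CC053-A1 had 15 of the 19 genes at 4-fold or more, CC059-B1 14 and LAT-D3 12, with Yap1 at 9720, 3151 and 8011 CPM, and the next mouse had 5. The left-out tumour 2 of LOX-D1, whose strain is in doubt, also had 13 of 19, with Yap1 at 7766 CPM, whereas tumour 1 of that mouse had 118 CPM. Of 14 tested genes of the Hippo pathway and its targets Yap1 itself was the 1 called higher, against 4.51% of all genes. The median log2 difference of the 14 was 0.73.

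**Figure D5:**
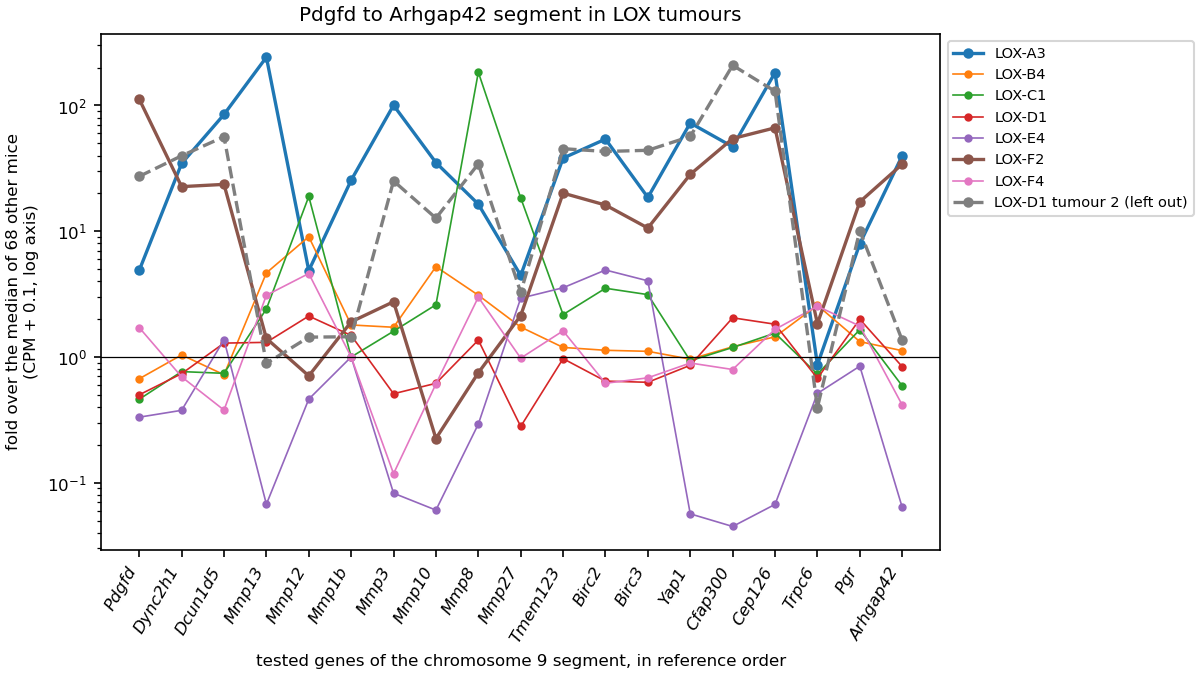
Fold over the median of 68 other mice (CPM + 0.1, log axis) for 19 genes of the chromosome 9 segment in reference order, 1 line per LOX mouse and a dashed line for the left-out tumour 2 of LOX-D1. LOX-A3 and LOX-F2 lie above the other 5 mice from Tmem123 to Cep126, and LOX-C1 exceeds them at Mmp8 with 268 CPM.

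Immune genes beyond neutrophils varied with single mice. Of 23 tested genes of the MHC region 2 were higher, H2-T23 and H2-T22, and of 23 killer lectin receptors 2, Klra9 and Klra2, with list medians of 0.65 and 0.55 on the log2 scale. These shares stood against 4.51% of all genes, as did the interferon count below. In LOX-E4 H2-T23, a nonclassical class I gene, was at 636 CPM and Klra9 at 5.04 CPM, each the highest LOX value, and all 4 genes lost their calls when LOX-E4 was left out with the lung libraries (adjusted p between 0.182 and 0.406). Xaf1, an interferon-induced gene, was the 1 called of 22 type I interferon genes, whose median was 0.99 (Xaf1 1.43 ± 0.38, adjusted p = 0.0104), and did not pass without LOX-F2 (0.94, adjusted p = 0.180). C1s1, a protease of the classical complement pathway, was at 24.6 CPM in LOX-F4 and 76.2 to 2444 CPM in the other LOX mice against a median of 113 CPM (1.85 ± 0.53, adjusted p = 0.0207), and kept its call in both smaller sets, but not without LOX-C1 (1.14, adjusted p = 0.286) or without LOX-A3 (1.66, adjusted p = 0.0798).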

How the data were processed

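Whole asbestos-induced tumours were sequenced as strand-specific mRNA libraries, per the labels' protocols. The authors' deposited table holds estimated counts per gene as whole numbers; kallisto 0.46.1 and build GRCm38 are named in the submitters' processing notes, and the annotation release is not given in the sources used here. kallisto shares reads among near-identical copies. The members and the gene lists were chosen with earlier results of these data known. Tumours were summed per mouse (LOX 15288728 to 25090139 counts, others 11138491 to 91935422; 3 counts in the shallowest are 0.269 CPM). LOX was compared with the other mice by edgeR 4.0.16 (R 4.3.3; filterByExpr, TMM, robust quasi-likelihood F-test, Benjamini-Hochberg over all genes). Each SE of a log2 difference is that difference, without its sign, divided by the square root of its F statistic. It rests on a spread fitted over all mice together and not on that of the LOX mice alone. Printed CPM are counts scaled to a library total of 1000000. Named genes are, per direction, the 12 of lowest p, up to 10 further of largest change and up to 4 pseudogenes with an adjusted p under 0.05, a log2 change of at least 1, a mean of 5 CPM or more in the higher group and all 7 LOX mice on 1 side of the other mice's median. Without those limits, up to 4 called members per list, Cwc22, Rps2-ps13 and the 8 genes most variable within LOX (mean of at least 20 CPM) were added. Others were chosen after their values were seen. The fit was tested on simulated data. Tumours are separate samples, and mice the replicates. Positions are from GENCODE M21; Biopython 1.88 aligned the copies. Some genes that met the rule are not reported here. The alternatives tried are given below.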

Additional observations from a re-analysis of the deposited data

Results flagged for a closer look

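Among 43 named genes, 7 had 1 LOX mouse far from the other 6, and each time it was LOX-F4, the library with lung RNA. The usual rate of about 1 in 20 groups flagged by chance does not apply here. Most of these genes were named from a comparison that included LOX-F4, and all were measured in the same 7 LOX mice. LOX-F4 was high for Dram1 (1570 CPM, others 43.9 to 93.0), Zdhhc3 (697 CPM, others 120.2 to 204), Tgoln1 (1816 CPM, others 149.1 to 287), Tnk1 (30.7 CPM, others 0.327 to 1.94), Pglyrp1 (106 CPM, others 2.11 to 11.6) and Retsat (384 CPM, others 26.4 to 78.2). For Ccdc88a it was low (11.3 CPM, others 39.2 to 74.4). The left-out tumour 3 of LOX-B4 held 50.1% of its counts in seminal vesicle and reproductive tract genes, against at most 0.0834% in the 68 mice of other strains.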

How the results depend on the processing

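The counts of higher and lower genes (843 and 117) became 1728 and 177 with no filter on low counts, 301 and 40 with limma-voom, and 2628 and 376 with 1 coefficient per strain, where the spread between strains is left out. DESeq2's Wald test gave 701 higher and 722 lower, all 34 other strains 297 lower, and leaving out libraries with over 1% of another tissue's genes 324 lower. Leaving out the highest-numbered libraries, LOX-A3 and LOX-E4 among them, gave 64 lower. Without the 2 lung libraries 389 and 39 were called, and without LOX-E4 as well 205 and 16; both were chosen after seeing the data. Leaving out each LOX mouse gave 382 to 894 higher and 35 to 163 lower, the lowest without LOX-F4. Leaving out each strain gave 752 to 960 higher and 101 to 192 lower, the most without TAS or CC046. The Cwc22 difference from TAS lay between -0.60 and -0.34 without each LOX mouse. Without LOX-A3, Mmp13 (-0.55), Mmp3 (-1.09) and Fosb (-0.26) changed sign, as did Pdgfd without LOX-F2 (-0.19); leaving out a mouse or strain gave at most 4.20, 3.08, 2.33 and 3.54 for these 4. Without the highest-numbered libraries Mmp13 was -0.37 and Mmp3 -0.90, with DESeq2 -0.28 and -1.07. Vil1 became -0.77 against 34 strains, and C6 -0.62 without the lung libraries and LOX-E4. The causes were not tested. Pus7l, Cwc22, Saa3, Slc39a8, Fth1, Socs3, Il1f9, Bst1 and Sfn kept direction and call in all 38 alternatives. No paired analysis was possible because replicate numbers only follow accession order and no label ties a LOX mouse to a mouse of another strain, although codes such as D1 recur. Counts near 3 per library (0.120 to 0.196 CPM) cannot show differences.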

Other observations

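LOX-E4, LOX-F2 and LOX-F4 shared high counts for 8 genes that were chosen after their values were seen, 7 of them processed pseudogenes on 6 chromosomes and 1 a predicted coding gene. The same 3 mice had the lowest Pus7l, Zfp729a and Ddx3y in LOX. Rps13-ps2, a copy of a ribosomal protein gene, was at 311, 183 and 278 CPM in these mice and at 0 in the other 4 LOX mice. Rpl17-ps9 was at 151.9, 130 and 243 CPM, and at 8.67, 0.279, 0.847 and 1.07 CPM in LOX-A3, LOX-B4, LOX-C1 and LOX-D1. The sum over the 8 genes was 952, 702 and 848 CPM in LOX-E4, LOX-F2 and LOX-F4, and at most 11.4 CPM in the rest of LOX. In the other strains 7 of 68 mice had sums of 234 to 816 CPM, namely Boon-H2, CC040-E1, CIS-E2, CIS-G4, LAT-D3, TAS-H2 and TAS-I1, and the next highest had 31.8 CPM. Mice of LOX, TAS, CIS, LAT, CC040 and Boon lay on both sides of this gap, and what the high libraries share in their preparation was not tested. Of the 31-base stretches of Rps13-ps2, 0% occur in no other gene, and of those of Rpl17-ps9 9.52%.

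Single LOX tumours or pairs of them led some calls by genes of other kinds, of which 3 are given here, chosen after their values were seen. Folh1, which encodes a folate hydrolase, was at 51.3 CPM in LOX-D1 and 0 to 5.26 CPM in the other LOX mice (other strains: maximum 1.57). The proteoglycan gene Spock2 was at 1264 CPM in LOX-B4, 119 in LOX-C1 and 4.71 to 17.3 CPM in the rest (maximum elsewhere 102). Gpr179, a receptor of retinal bipolar cells, was at 16.3 CPM in LOX-B4 and 11.3 in LOX-C1, against a maximum of 4.03 CPM elsewhere.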
